A study of Mus musculus with 36 samples.

Results

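Acute-phase proteins are plasma proteins whose production in liver changes during infection or injury, and 10 genes for such proteins were followed here: the serum amyloid A genes Saa1, Saa2, Saa3 and Saa4, the orosomucoid genes Orm1, Orm2 and Orm3, the haptoglobin gene Hp, the lipocalin gene Lcn2 and the serum amyloid P gene Apcs. They were chosen by gene symbol from the 21889 symbols of the deposited expression table, and all 10 were found. No rule on their values was used, but earlier results of these data were known when they were chosen. RNA-Seq had been done on whole livers of 36 male C57BL/6 mice (C57BL/6J in the study's methods), 3 at each of 12 ages. The ages were GD17.5 (late gestation, labelled as day -2 from birth), Day 0 (just born, not yet suckling), Day 1 (24 h after birth) and Days 3 and 5 in the first week, Days 10, 15 and 20 before weaning, and Days 25, 30, 45 and 60 after it. No mouse was treated, infected or genetically altered according to the labels, pups were weaned at 21 days of age, and the mice of an age were drawn from several litters. The 12 age groups therefore differ in age and diet, and Day 60 served as the adult reference. Hour of collection could differ as well. In the study's methods, livers from Day 3 onward were taken at a fixed morning hour, while Days 0 and 1 were timed from birth. The part of the hour was not tested. No group was given an inflammatory stimulus, so the levels are those of untreated livers.

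In adult liver, interleukin-6 binds its receptor on hepatocytes together with the shared chain gp130 (gene Il6st), Janus kinases are activated, and the transcription factor STAT3 enters the nucleus. STAT3 acts with C/EBP proteins and, downstream of interleukin-1, with NF-kB on the promoters of acute-phase genes, and SOCS3 ends the signal. The products have different tasks: serum amyloid A travels on high-density lipoprotein, orosomucoids carry small lipophilic molecules, haptoglobin captures free haemoglobin, lipocalin 2 withholds bacterial siderophores, and serum amyloid P is a pentraxin that binds amyloid, chromatin and microbes. Lcn2 is also made in developing neutrophils, and Saa3 is made in macrophages and many other cells.

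Expression is given as FPKM, the number of sequenced fragments scaled to transcript length and to the total mapped, and ± marks the SD of 3 mice. Summed FPKM was between 353712 and 450597 per mouse, and Pearson's r across genes between mice of one age was at least 0.971 (genes are not independent replicates). The tissue label was checked with marker genes. The sum of 9 hepatocyte genes was 7440 ± 420 FPKM at GD17.5, between 30392 and 34971 FPKM on average at Days 0 to 5, and between 47880 and 65034 FPKM at Days 10 to 60, and none of the 9 was at 0 at any age. The sum of 10 erythroid genes, mainly globins, was 171153 ± 27198 FPKM at GD17.5, 79295 ± 6106 FPKM at Day 0 and 743 ± 51.4 FPKM at Day 60. Fewer cells of a type and less RNA per cell cannot be told apart in these bulk samples, and the part that these marker genes' own course has in the results on acute-phase genes was not tested.

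Together the 10 genes held 0.0816% ± 0.0149 of all FPKM at GD17.5. Newborns had 0.610% ± 0.160, mice of Day 5 had 0.997% ± 0.0898, and the share stayed between 0.658% and 0.991% at the later ages. The composition of this sum turned over with age. Lcn2 made up 52.3% of it at GD17.5, Hp made up 93.1% at Day 20, and Orm1 made up 22.6% at Day 45, after 0.0352% at Day 15.

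**Figure D1:**
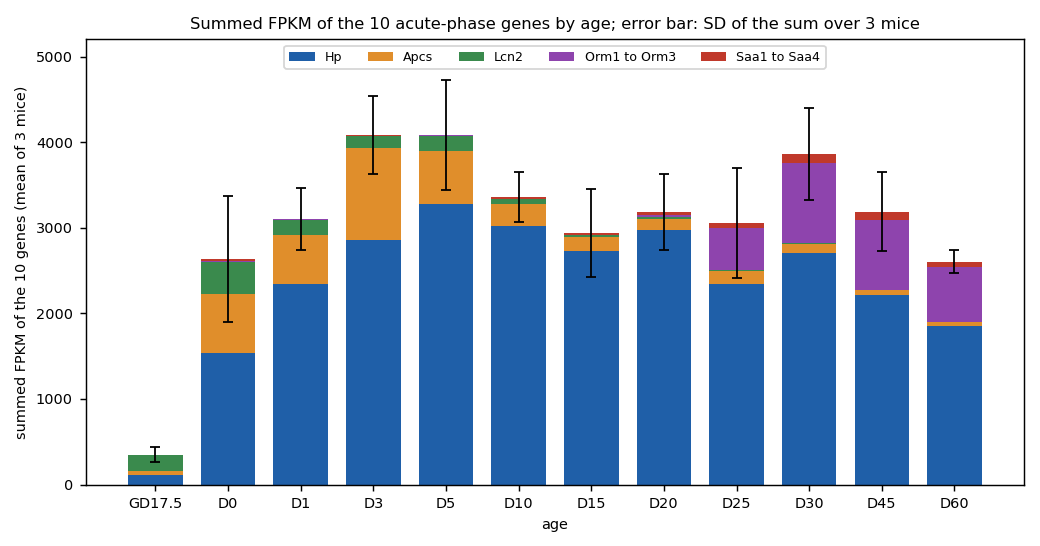
Stacked bars give the mean FPKM of Hp, Apcs, Lcn2, the 3 Orm genes and the 4 Saa genes at each of the 12 ages on a linear axis that starts at 0, and the error bar is the SD of the sum over 3 mice. Hp is the largest segment at every age but GD17.5, where Lcn2 is, and the Orm segment is visible from Day 25 onward.

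Comparisons between 6 pairs of ages or age groups were tested with limma on log2(FPKM + 1), a scale that understates fold changes of low genes. P-values were adjusted over all 11149 genes tested. At GD17.5, 8 of the 10 genes were lower than at Day 60 (all but Lcn2 and Apcs; 18.6% of all genes tested were lower) and 1, Lcn2, was higher (56.4% of all genes were higher). From GD17.5 to Day 0, 5 rose (Saa3, Orm1, Hp, Lcn2 and Apcs; 13.1% of all genes) and 1 fell (Saa4; 41.4% of all genes). From Day 0 to Day 1, 1 rose (Hp; 23.7% of all genes) and 3 fell (Saa3, Orm1 and Lcn2; 7.88% of all genes). From Day 1 to Day 5 only Saa4 rose (9.97% of all genes), and none fell by limma at an adjusted p under 0.05 (0 also at an unadjusted p under 0.05; 4.45% of all genes fell). Across weaning, from Day 20 to Day 25, 5 rose (Saa1, Saa2, Orm1, Orm2 and Orm3; 3.94% of all genes). Orm3 passed the filter on low values only through Day 25, the high group of that comparison, so its call is no support, which leaves 4 of the other 9. None fell at an adjusted p under 0.05 in limma (1, Saa4, at an unadjusted p under 0.05; 3.26% of all genes fell). Between the suckling ages (mean of Days 1 to 20) and the weaned ages (mean of Days 25 to 60), 3 were higher during suckling (Hp, Lcn2 and Apcs; 68.1% of all genes) and 7 were lower (all Saa and Orm genes, with the same reservation for Orm3; 11.7% of all genes). Each of the 10 was called against Day 60 at some age, a count to be read beside the 90.7% of all genes for which this held.

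The median log2 fold change of the 10 genes was -2.52 for GD17.5 against Day 60, 0.59 for Day 0 against GD17.5, -0.17 for Day 1 against Day 0, 0.15 for Day 5 against Day 1, 0.57 for Day 25 against Day 20 and -1.0 for suckling against after weaning. Over all genes tested the same medians were 0.56, -0.29, 0.19, 0.05, -0.07 and 0.39. Median and calls of all genes depended on the scaling between libraries: with a common upper quartile, the share of all genes that were higher and lower at GD17.5 than at Day 60 was 40.7% and 29%, and in suckling against after weaning it was 45.3% and 25.8%. The upper quartile gave 20.1% higher and 26% lower for Day 0 against GD17.5, 14.7% and 12% for Day 1 against Day 0, and 6.19% and 6.37% for Day 5 against Day 1. Under that scaling the direction among the 10 genes was 1 higher and 9 lower at GD17.5 against Day 60, and 2 higher and 7 lower in suckling against after weaning.

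**Figure D2:**
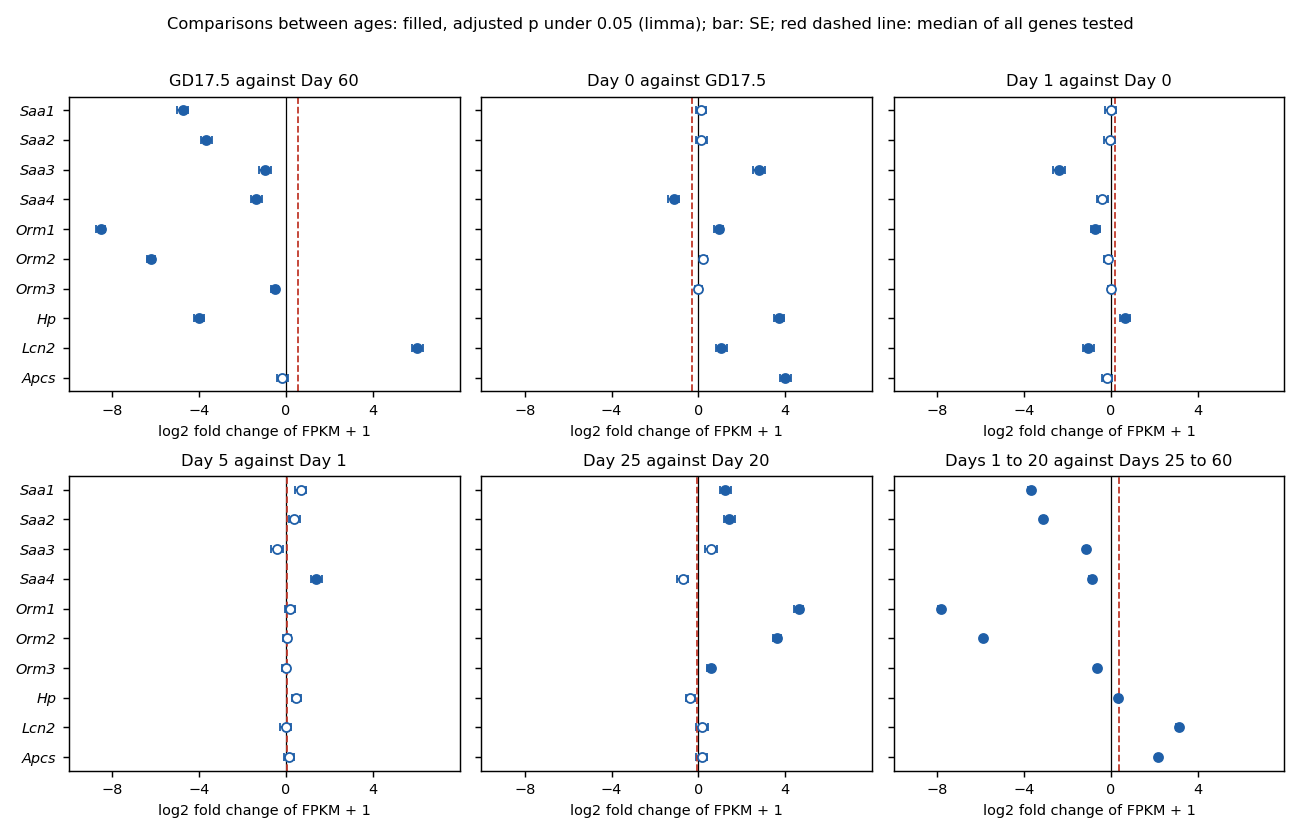
Each panel is 1 comparison between ages, with the log2 fold change of FPKM + 1 on a linear horizontal axis, a bar for its SE, and a filled point where the limma adjusted p was under 0.05. The red dashed line is the median of all 11149 genes tested. At Day 25 against Day 20 the points for Orm1 and Orm2 lie at 4.63 and 3.61, while those for Hp, Lcn2 and Apcs lie between -0.37 and 0.16.

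The 4 Saa genes lie within 42317 bases of chromosome 7 in NCBI37/mm9 (Saa3 at chr7:53967368-53971046, Saa4 at chr7:53983387-53987913, Saa1 at chr7:53995871-53998350 and Saa2 at chr7:54007203-54009684, the last on the plus strand and the others on the minus strand). Their annotated transcripts differ in likeness: Saa1 and Saa2 were identical at 94.4% of aligned positions, against 72.7% for Saa1 and Saa3 and 65.6% for Saa1 and Saa4. Saa1 and Saa2 shared 0 windows of 100 bases, the read length, so a read could be placed by at least 1 difference, although reads with sequencing errors could still be misplaced. The 250 bases before the start of Saa1, Saa2 and Saa3 are shown because the first pair changed together with age, whereas Saa3 was highest at Day 0. From Day 20 to Day 30 the mean of Saa3 rose as well. Sequences are from RefSeq on GRCm38.p6 (8 of the 10 genes matched), 5′ to 3′ on the gene's strand, with matches to a C/EBP motif (TTNNGNAA, either strand) in capitals, a motif that 36.8% of 32851 mouse promoters in the table hold at least once.
Saa1 (chr7:46742981-46743230, minus strand): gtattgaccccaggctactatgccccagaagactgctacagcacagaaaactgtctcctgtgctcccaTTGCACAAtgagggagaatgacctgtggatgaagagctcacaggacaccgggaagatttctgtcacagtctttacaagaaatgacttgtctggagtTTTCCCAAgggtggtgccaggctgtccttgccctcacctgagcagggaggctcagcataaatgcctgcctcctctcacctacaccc
Saa2 (chr7:46751583-46751832, plus strand): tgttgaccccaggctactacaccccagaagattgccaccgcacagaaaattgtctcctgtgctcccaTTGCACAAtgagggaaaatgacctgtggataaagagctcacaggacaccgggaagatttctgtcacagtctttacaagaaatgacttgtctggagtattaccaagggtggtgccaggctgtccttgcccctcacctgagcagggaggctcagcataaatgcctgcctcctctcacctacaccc
Saa3 (chr7:46715677-46715926, minus strand): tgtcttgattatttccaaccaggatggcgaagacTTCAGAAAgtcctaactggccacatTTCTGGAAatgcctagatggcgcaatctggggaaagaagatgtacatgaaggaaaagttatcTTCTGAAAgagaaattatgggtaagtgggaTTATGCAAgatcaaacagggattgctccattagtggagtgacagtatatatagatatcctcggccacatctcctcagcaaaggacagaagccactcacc

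The Saa1 and Saa2 promoters were identical at 95.6% of aligned positions, and each held TTGCACAA, at -182 to -175 in Saa1 and at -183 to -176 in Saa2; a match nearer the start, TTTCCCAA at -86 to -79, was present in Saa1 only. Saa3, at 59.4% identity with Saa1, held 4 matches, of which TTATGCAA at -99 to -92 was the closest to the start. No match to a STAT motif (TTCNNNGAA, either strand, in 7.02% of promoters) or to the NF-kB consensus (7.25% of promoters) was found in these 3 windows, which says only that those letters are absent there.

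Saa1, a major inducible serum amyloid A, was barely present before and around birth. At GD17.5 it was listed at 0 in 2 mice and at 0.0444 FPKM in the other, at Day 0 the mice had 0.243, 0.0221 and 0.0606 FPKM, and at Day 3 they had 0.0780, 0.116 and 0.134 FPKM. One fragment of Saa1 corresponds to about 0.0197 FPKM, so the values up to Day 3 rest on an estimated 0 to 11.7 fragments per mouse and cannot order these ages. At Day 5 the mice had 0.70, 1.10 and 0.513 FPKM, all above those of Day 3. Levels were 2.75 ± 0.603 FPKM at Day 10, 4.13 ± 1.58 FPKM at Day 15 and 8.02 ± 1.05 FPKM at Day 20. At Day 25 the mice spread widely, with 11.2, 20.2 and 36.1 FPKM, yet each was above all mice of Day 20. The peak was at Days 30 and 45 (47.7 ± 4.57 and 48.6 ± 10.2 FPKM, overlapping), and Day 60 was lower than both, with 27.7, 26.7 and 25.6 FPKM.

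In the tests, Saa1 rose from Day 20 to Day 25 by 1.25 (SE 0.244) on the log2 scale (adjusted p = 0.000886), and GD17.5 was below Day 60 by a log2 fold change of -4.77 (adjusted p = 1.39e-16). Day 5 against Day 1 gave 0.68 (SE 0.244, adjusted p = 0.0618), which misses the threshold although the 3 mice of Day 5 lay above the 3 of Day 1. The level differed from Day 60 at 10 of the 11 other ages.

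Saa2, the close relative of Saa1 and likewise inducible, followed the same ages at a lower level. It was listed at 0 in all 3 mice of GD17.5 and in 1 mouse of Day 3, and the mean stayed at 0.0578 to 0.102 FPKM at Days 0 to 3. At Day 20 the mice had 4.64, 3.95 and 3.15 FPKM, at Day 25 they had 7.19, 11.1 and 21.9 FPKM, and at Day 30 they had 28.7, 31.9 and 18.8 FPKM. All mice of Day 25 were above those of Day 20, and Days 25 and 30 overlapped. The rise over weaning was 1.43 (SE 0.245, adjusted p = 0.000169) on the log2 scale. Day 60 stood at 11.9 ± 2.52 FPKM, below Day 30 without overlap. From Day 5 to Day 60 the ratio of Saa1 to Saa2 within a mouse had age means between 1.68 (Day 25) and 3.03 (Day 45).

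Saa3, which macrophages and many other cells also make, had a different course, with its highest level at birth. Prenatal mice (GD17.5) had 1.39, 2.72 and 3.16 FPKM, newborns (Day 0) had 15.2, 36.3 and 20.0 FPKM, and mice of Day 1 had 3.74, 2.91 and 3.65 FPKM. Every newborn was thus above every mouse of the ages on either side, and the mean at Day 0 was 9.83-fold that of GD17.5 and 6.94-fold that of Day 1. On the log2 scale the rise was 2.81 (SE 0.276, adjusted p = 3.20e-09) and the fall -2.40 (adjusted p = 1.77e-07). Saa3 was lowest at Day 3 (1.39 ± 0.516 FPKM) and stayed between 2.33 and 3.53 FPKM on average at Days 5 to 20. A lower maximum followed at Day 30, with 14.9, 10.53 and 8.87 FPKM, all above the mice of Day 25 and Day 45. The step over weaning gave 0.58 (SE 0.276, adjusted p = 0.245), which misses the threshold although the 3 mice of Day 25 lay above the 3 of Day 20. The sum of 9 macrophage genes was 263 ± 47.5 FPKM at GD17.5, 250 ± 31.9 FPKM in newborns and 290 ± 31.8 FPKM a day later. Its members went both ways from GD17.5 to Day 0: Clec4f and Vsig4 rose (1.85 and 1.17 on the log2 scale), whereas Marco, Cd5l and Timd4 fell (-1.42, -1.30 and -0.71). From Day 0 to Day 1, when Saa3 fell, 5 of the 9 macrophage genes rose (23.7% of all genes). None of the 9 fell by limma at an adjusted p under 0.05 (0 also at an unadjusted p under 0.05), beside 7.88% of all genes. The part of macrophages in the course of Saa3 was not tested.

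Saa4 is known as the constitutive member of the family, and it was the only one of the 10 genes that fell over birth. Prenatal mice (GD17.5) had 10.0, 7.36 and 5.70 FPKM, newborns (Day 0) had 1.6, 4.50 and 3.09 FPKM, and mice of Day 1 had 2.02, 2.60 and 1.39 FPKM. GD17.5 lay above both later ages without overlap, and the fall from GD17.5 to Day 0 was -1.13 (SE 0.246, adjusted p = 0.000376). By Day 3 the mice had 7.83, 7.81 and 7.40 FPKM, within the range of GD17.5. The rise from Day 1 to Day 5 was 1.40 (SE 0.246, adjusted p = 0.000146), the sole call among the 10 genes in that comparison. From Day 15 the age means were between 14.4 and 24.4 FPKM, and Day 20 (19.3, 29 and 24.5 FPKM) was above Day 25 (15.4, 16.9 and 10.9 FPKM) without overlap, with a log2 fold change of -0.72 (adjusted p = 0.0769).

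**Figure D3:**
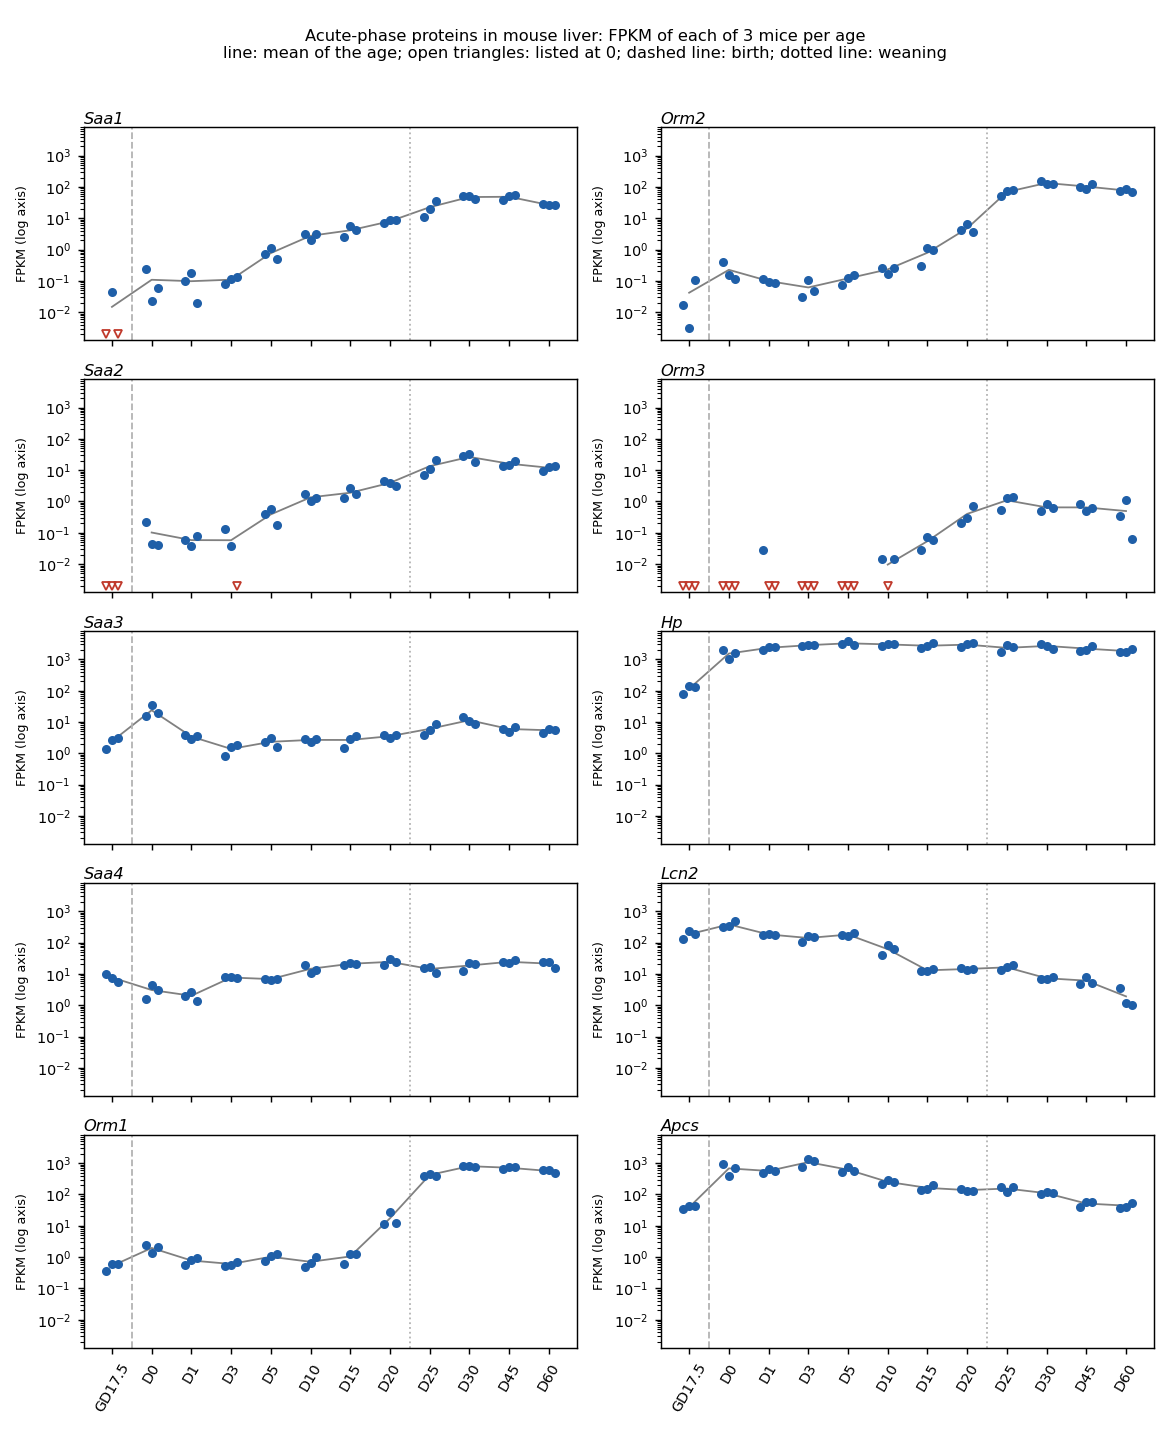
Each panel is 1 gene, with FPKM on a log axis that is the same in all panels against age, a blue point for each of 3 mice and a grey line through the age means. Open triangles mark mice listed at 0, the dashed line marks birth and the dotted line weaning. Saa1 and Saa2 climb from Day 5 to Day 30 in the age means, Orm1 climbs between Days 15 and 30, Saa3 has its maximum of 23.8 FPKM at Day 0, and Lcn2 declines from its Day 0 mean of 380.5 FPKM to a mean of 1.92 FPKM at Day 60.

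The orosomucoid genes lie next to each other on chromosome 4, all on the plus strand (Orm1 at chr4:63005594-63009197, Orm3 at chr4:63017196-63020545 and Orm2 at chr4:63023483-63026912 in NCBI37/mm9), within 21319 bases. Orm1 and Orm2 transcripts were identical at 91.0% of aligned positions and shared 47 of 676 windows of 100 bases (6.95%), so a few reads could have been assigned to either gene. Orm3 shared 0 windows with Orm1 or Orm2. The promoters of Orm2 and Orm3 are shown because these neighbours have nearly the same sequence before the start and very different levels; capitals mark the C/EBP motif and a TATA box (TATAAA on the gene's strand, in 7.59% of promoters).
Orm2 (chr4:63362199-63362448, plus strand): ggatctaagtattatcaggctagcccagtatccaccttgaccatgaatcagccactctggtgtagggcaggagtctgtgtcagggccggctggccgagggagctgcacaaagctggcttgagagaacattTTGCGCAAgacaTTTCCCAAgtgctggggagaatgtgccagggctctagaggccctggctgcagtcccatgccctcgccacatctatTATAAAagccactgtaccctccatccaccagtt
Orm3 (chr4:63355908-63356157, plus strand): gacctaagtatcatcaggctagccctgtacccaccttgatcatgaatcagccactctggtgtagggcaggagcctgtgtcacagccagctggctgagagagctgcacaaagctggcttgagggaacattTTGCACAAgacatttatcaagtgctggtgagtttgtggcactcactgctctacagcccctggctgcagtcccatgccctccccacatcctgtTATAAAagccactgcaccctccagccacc

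The Orm2 and Orm3 windows were identical at 89.0% of aligned positions. Both held a TATA box, at -33 to -28 in Orm2 and at -29 to -24 in Orm3, and a C/EBP match at nearly the same place, TTGCGCAA at -120 to -113 in Orm2 and TTGCACAA at -121 to -114 in Orm3. A further match, TTTCCCAA at -108 to -101, was found in Orm2 only. The mean level of Orm2 at Day 30 was 134 FPKM, against 0.648 FPKM for Orm3.

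Orm1, the most abundant orosomucoid, had age means that differed 1540-fold, with the lowest, 0.521 FPKM, at GD17.5 and the highest, 803 FPKM, at Day 30. From GD17.5 to Day 15 no mouse exceeded 2.47 FPKM. Within that stretch Day 0 stood out, with 2.47, 1.31 and 2.10 FPKM against 0.356, 0.610 and 0.598 FPKM at GD17.5 and 0.561, 0.815 and 0.957 FPKM at Day 1. The newborns did not overlap either neighbour, and both steps passed the test (0.94, SE 0.210, adjusted p = 0.000471, and -0.72, adjusted p = 0.0106). At Day 15 the mice had 0.60, 1.29 and 1.26 FPKM and at Day 20, before weaning, they had 11.8, 28 and 12.2 FPKM, a mean ratio of 16.5 with no overlap. At Day 25 they had 395, 466 and 402 FPKM and at Day 30 they had 842, 816 and 750 FPKM.

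The Orm1 rise over weaning was 24.3-fold in the ratio of means and 4.63 (SE 0.210, adjusted p = 3.10e-15) on the log2 scale. In suckling against after weaning the log2 fold change was -7.85 (SE 0.0957, adjusted p = 6.31e-31), the largest of the 10 genes in size. Orm1 then declined in the age means from Day 30 over Day 45 (715 ± 43.1 FPKM) to Day 60 (563 ± 65.5 FPKM), and neighbouring ages did not overlap.

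Orm2, which encodes another orosomucoid, rose over the same ages. Mice of GD17.5 to Day 10 had between 0.00308 and 0.408 FPKM. At Day 15 they had 0.292, 1.09 and 1.00 FPKM, at Day 20 4.16, 6.56 and 3.59 FPKM, at Day 25 51.1, 74.0 and 82.7 FPKM, and at Day 30 151, 128 and 123 FPKM. Each of these 4 ages was above the one before without overlap. The step over weaning was 3.61 (SE 0.184, adjusted p = 1.66e-14) on the log2 scale, and the ratio of means was 14.5. The ratio of Orm1 to Orm2 within a mouse had means between 8.20 and 12.65 at Days 0 to 5, where Orm2 was at most 0.408 FPKM, and then a mean of 3.14 at Day 10. The lowest was that of Day 15 (1.5 ± 0.483), and it stood at 3.51 ± 0.724 at Day 20. After weaning it was 6.30 ± 1.44 at Day 25 and 7.32 ± 0.394 in adults. The ratio at Day 60 lay above that at Day 20 in every mouse, so the genes did not rise by the same factor over those ages, with the reservation that a few reads cannot be assigned between them.

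Orm3, a low member of the family, was listed at 0 in 15 of the 36 mice, all from GD17.5 to Day 10. Its mean was at least 1 FPKM at Day 25 alone (0.553, 1.34 and 1.38 FPKM), which is how it passed the filter on low values, so its calls are those of a gene at the limit. Day 20 had 0.205, 0.303 and 0.695 FPKM, and overlapped Day 25. The step between these ages was 0.57 (SE 0.156, adjusted p = 0.0221) on the log2 scale and was lost without mouse 1 or mouse 2 of Day 20 (adjusted p = 0.124 and 0.0962) and with a pseudocount of 0.1 (adjusted p = 0.0540). At Day 60 the mice had 0.343, 1.08 and 0.0621 FPKM, and without mouse 2 the difference from GD17.5 no longer passed (adjusted p = 0.0937).

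Hp (chr8:112099030-112103072, minus strand, NCBI37/mm9) was the most abundant of the 10 genes at every age but GD17.5. Its mice had 80.8, 140 and 128 FPKM at GD17.5 and 1967, 1057 and 1602 FPKM at Day 0. The lowest newborn was well above the highest prenatal mouse, and the mean rose 13.3-fold, or 3.71 (SE 0.219, adjusted p = 6.82e-14) on the log2 scale. The sum of the hepatocyte genes went from 7440 to 34971 FPKM on average over the same step. At Day 1 Hp was at 2005, 2522 and 2519 FPKM, a rise of 0.64 (SE 0.219, adjusted p = 0.0264) that did not pass without mouse 2 or 3 of Day 0 (adjusted p = 0.196 and 0.0510), without mouse 2 or 3 of Day 1 (adjusted p = 0.0808 and 0.0677) or with a common upper quartile (adjusted p = 0.135). From Day 1 to Day 60 all mice lay between 1676 and 3863 FPKM, and in the order of the age means every neighbouring pair overlapped, from Day 5 (3276 ± 542 FPKM) down to Day 0. The suckling ages were higher than those after weaning by 0.35 (SE 0.10, adjusted p = 0.00250), but with a common upper quartile the value was -0.07 (adjusted p = 0.607).

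Apcs (chr1:174824093-174825185, minus strand, NCBI37/mm9) rose at birth as Hp did and was lower again in adults. The mice had 33.4, 41.3 and 42.4 FPKM at GD17.5 and 946, 390 and 712 FPKM at Day 0, a 17.48-fold ratio of means with no overlap and a rise of 4.01 (SE 0.238, adjusted p = 7.90e-14) on the log2 scale, the largest of the 10 genes over birth. Apcs was highest at Day 3 with 763, 1321 and 1154 FPKM, and its levels were 253 ± 33.1 FPKM at Day 10, 138 ± 10.6 FPKM at Day 20, 110 ± 9.33 FPKM at Day 30 and 44.0 ± 8.18 FPKM at Day 60. The mice of Day 60 had 38.3, 40.4 and 53.4 FPKM and overlapped those of GD17.5, with a log2 fold change of -0.16 (SE 0.238, adjusted p = 0.549) for GD17.5 against Day 60. With a common upper quartile that value was -0.75 (adjusted p = 0.00471). The suckling ages were higher than those after weaning by 2.17 (SE 0.109, adjusted p = 8.10e-17), and no step over weaning passed (Day 20 at 150, 131 and 133 FPKM, Day 25 at 174, 121 and 170 FPKM, overlapping).

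Lcn2 (chr2:32240153-32243317, minus strand, NCBI37/mm9) had a course opposite to that of Saa1, Saa2 and the Orm genes. Its promoter is shown because this was the gene that was higher before and around birth than in adults; the capitals mark a single C/EBP match, TTGCTCAA at -216 to -209.
Lcn2 (chr2:32387740-32387989, minus strand, GRCm38.p6): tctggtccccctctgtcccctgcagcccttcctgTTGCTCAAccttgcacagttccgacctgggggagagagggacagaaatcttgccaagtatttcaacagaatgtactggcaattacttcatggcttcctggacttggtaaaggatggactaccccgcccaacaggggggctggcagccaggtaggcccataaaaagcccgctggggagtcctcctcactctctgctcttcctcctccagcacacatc

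The Lcn2 level was 126, 234 and 194 FPKM in the mice of GD17.5, 324, 328 and 490 FPKM at Day 0 and 180, 193 and 175 FPKM at Day 1. Newborns were above every mouse of the other ages, and the rise over birth (1.06, SE 0.266, adjusted p = 0.00160) and the fall in the first 24 h (-1.03, adjusted p = 0.00448) both passed. The gene was at 180 ± 16.1 FPKM at Day 5, 61.7 ± 22.3 FPKM at Day 10 and 13 ± 1.2 FPKM at Day 15. It then held a plateau, with 15.4, 13.4 and 14.4 FPKM at Day 20 and 13.7, 16.4 and 18.6 FPKM at Day 25, before lower levels at Day 30 (7.28 ± 0.756 FPKM) and Day 60 (3.60, 1.17 and 0.98 FPKM). The highest and the lowest age mean differed 198-fold. Lcn2 differed from Day 60 at all 11 other ages, and GD17.5 was higher than Day 60 by 6.06 (SE 0.266, adjusted p = 3.57e-18) on the log2 scale.

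Neutrophil granule genes moved with Lcn2. The sum of 13 such genes (Camp, Ltf, Ngp, S100a8, S100a9, Mpo, Elane, Prtn3, Ctsg, Mmp8, Mmp9, Chi3l3 and Cebpe) was between 1919 and 3642 FPKM at GD17.5, between 3997 and 4421 FPKM at Day 0, between 307 and 697 FPKM at Day 10, between 29.6 and 102 FPKM at Day 15 and between 3.91 and 5.05 FPKM at Day 60. All 13 were higher at GD17.5 than at Day 60 (56.4% of all genes) and in suckling than after weaning (68.1% of all genes). From GD17.5 to Day 0, 5 rose (13.1% of all genes), and from Day 0 to Day 1, 7 fell (7.88% of all genes). No age had a granule gene at 0 in all 3 mice. Over the 36 mice Pearson's r between log2 Lcn2 and the log2 sum was 0.962, and for deviations from the age means it was 0.341; mice of an age share that age, so both values describe these livers only. The 2 quantities did not keep a fixed ratio. The granule sum per unit of Lcn2 was 15.6 ± 0.410 at GD17.5, 11.7 ± 0.360 at Day 5, 4.37 ± 3.34 at Day 15 and 0.508 ± 0.0504 at Day 25, since the sum went from 55.4 to 8.18 FPKM between Days 15 and 25 while Lcn2 was 13 and 16.2 FPKM. At later ages this ratio was 1.155 ± 0.254 (Day 30), 0.648 ± 0.278 (Day 45) and 3.266 ± 1.925 (Day 60, from 1.307 to 5.155 among the mice). Which cells made Lcn2 at any age was not tested.

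**Figure D4:**
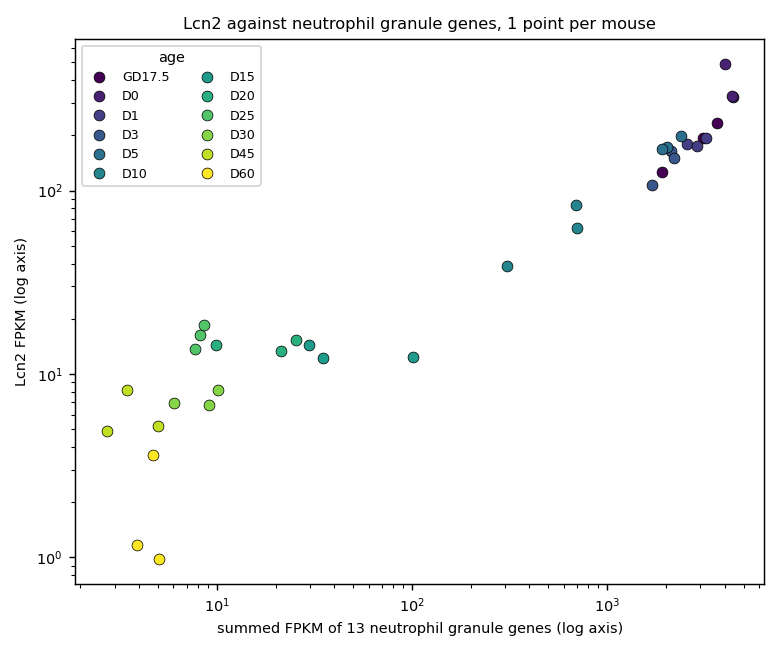
Each point is 1 of the 36 mice, with the summed FPKM of 13 neutrophil granule genes on the horizontal log axis, Lcn2 FPKM on the vertical log axis and a colour for age. Mice of GD17.5 to Day 10 lie along a rising band, whereas those of Days 15 to 25 share Lcn2 values of 12.2 to 18.6 FPKM over granule sums of 7.73 to 102 FPKM.

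The regulators of the acute-phase response were followed beside their targets. Il6, the cytokine itself, was between 0.00315 and 0.0363 FPKM on average at every age and below the filter. Of 10 cytokine genes of this kind, 2 (Il1a and Ctf1) were tested, and both were higher in suckling than after weaning, as were 68.1% of all genes. Ctf1, which encodes the gp130 ligand cardiotrophin-1, was 1.72 ± 0.459 FPKM in newborns and 4.15 ± 0.369 FPKM a day later, a rise that passed (0.93, adjusted p = 3.61e-05).

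Among 11 receptor and kinase genes, 9 were tested, and 7 were higher and 2 lower in suckling than after weaning, shares near those of all genes (68.1% higher and 11.7% lower). Il6ra, the interleukin-6 receptor, was 1.34 ± 0.362 FPKM at GD17.5, 4.37 ± 0.385 FPKM at Day 20 and 1.24 ± 0.633 FPKM at Day 25, and it fell over weaning by 1.30 on the log2 scale (adjusted p = 0.00293), in the step in which Saa1, Saa2, Orm1 and Orm2 rose. Lifr, the leukaemia inhibitory factor receptor, rose in that step by 0.73 (adjusted p = 0.0358). Il6st stood at 4.53 ± 1.48 FPKM before birth (GD17.5) and at 11.2 ± 2.27 FPKM at Day 0, a rise of 1.15 (adjusted p = 0.00640), and its later age means were between 9.04 and 18 FPKM.

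Of 14 transcription factor genes, 13 were tested. From GD17.5 to Day 0, 6 rose (13.1% of all genes), among them Cebpa, Cebpd, Hnf4a and Foxa2. None fell at an adjusted p under 0.05 in limma (1 at an unadjusted p under 0.05), beside 41.4% of all genes that fell. No other step had more than 1 call. Cebpd, a C/EBP protein induced with the acute phase, was 1.90 ± 0.575 FPKM at GD17.5, 4.26 ± 0.461 FPKM at Day 0 and 2.61 ± 0.222 FPKM a day later, with a rise of 0.88 (adjusted p = 0.000144) and a fall of -0.54 (adjusted p = 0.0193), the same ages at which Saa3, Orm1 and Lcn2 rose and fell. Cebpb was 3.39 ± 1.35 FPKM before birth (GD17.5) and 7.46 ± 0.538 FPKM in adults (Day 60), and its highest mean, 12.4 ± 6.25 FPKM, was at Day 20. Stat3 lay between 7.97 and 17.7 FPKM in the age means and was higher in suckling than after weaning by 0.59 (adjusted p = 3.76e-06). Across weaning 0 of the 13 passed in limma in either direction at an adjusted p under 0.05 (1 higher and 3 lower at an unadjusted p under 0.05). Of all genes, 3.94% rose and 3.26% fell in that step.

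Of 7 feedback inhibitor genes, 6 were tested, and 4 were higher and 1 lower at GD17.5 than at Day 60, near the shares of all genes (56.4% higher and 18.6% lower). Socs3 was 2.55 ± 0.0530 FPKM at GD17.5, 2.15 ± 0.577 FPKM at Day 0 and 0.813 ± 0.134 FPKM at Day 60, and GD17.5 was higher than Day 60 by 0.97 (adjusted p = 0.00485). At Day 30 it ranged from 0.541 to 7.54 FPKM among the 3 mice. Il1r2, the decoy receptor for interleukin-1, rose over birth (1.31, adjusted p = 1.38e-08) and fell to Day 1 (-1.16, adjusted p = 3.97e-07).

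Of 13 genes for receptors, scavengers and clearance of the products, 10 were tested. From GD17.5 to Day 0, 5 rose (13.1% of all genes), among them Asgr1, a subunit of the hepatic receptor that clears desialylated glycoproteins (2.29 ± 0.98 to 150 ± 36.5 FPKM; 5.54, adjusted p = 8.18e-18), and Hpx, the haem carrier haemopexin (74.8 ± 32 to 654 ± 49.4 FPKM; 3.22, adjusted p = 1.85e-11). Only Hmox1, which degrades haem, fell (1 of the 10 tested, beside 41.4% of all genes). Cd163, the macrophage receptor for haptoglobin bound to haemoglobin, stayed below the filter, with age means of 0.0541 FPKM before birth to 0.968 FPKM in adults.

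Other acute-phase genes were taken from a list of 22 positive and a list of 10 negative acute-phase proteins. From GD17.5 to Day 0, 17 of the 22 positive genes rose and 0 fell at an adjusted p under 0.05 in limma (1 fell at an unadjusted p under 0.05). Their median log2 fold change was 2.33. Of all genes, 13.1% rose and 41.4% fell in that step. The 4 largest rises were of Serpina3k, Serpina3m, Serpina3n, which are serine protease inhibitors, and Fgl1, a fibrinogen-like hepatokine (6.82, 6.18, 5.6 and 5.15 on the log2 scale). Of the 10 genes listed as negative, 7 rose as well, among them Serpina1a, whose place among negative genes is uncertain. The 1 that fell was the corticosteroid-binding globulin gene Serpina6 (-6.81, adjusted p = 1.77e-14), which went from 796 ± 68.1 to 8.40 ± 8.94 FPKM. Genes of both lists thus mostly had higher mRNA at birth. Across weaning, 3 of the 22 positive genes rose (3.94% of all genes) and 4 fell (3.26% of all genes). Serpina3k rose most, with 613 ± 162 FPKM at Day 20 and 6094 ± 489 FPKM at the next age (3.34, adjusted p = 1.85e-05), and Lbp, the lipopolysaccharide-binding protein, fell by 1.24 on the log2 scale (adjusted p = 3.49e-05).

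Mice of one age that were high in 1 of the genes were, for some pairs, high in another. Pearson's r of deviations from the age means over the 36 mice was 0.803 for Saa1 and Saa2, 0.668 for Saa1 and Orm2 and 0.645 for Orm1 and Orm2. It was 0.589 for Saa2 and Orm2, 0.524 for Hp and Apcs, 0.506 for Saa1 and Hp and 0.504 for Saa2 and Saa3. Other pairs were near 0, such as Saa2 and Orm1 (0.091) and Orm1 and Orm3 (0.068). Lcn2 was at or below 0.255 with each of the others, and Saa4 was below 0 with 8 of the others, down to -0.497 with Apcs. These are descriptions without a test, and both genes of a pair were read from the same library, at the same depth, in each mouse. At Day 25, the 3 mice had the same order for Saa1, Saa2, Saa3, Orm2, Orm3 and Lcn2 (mouse 1 lowest and mouse 3 highest), whereas Orm1 and Hp were highest in mouse 2. Over all 36 mice without removal of the age means, Orm1 and Orm2 gave 0.996, Saa1 and Saa2 0.99, and Saa1 and Lcn2 -0.911.

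**Figure D5:**
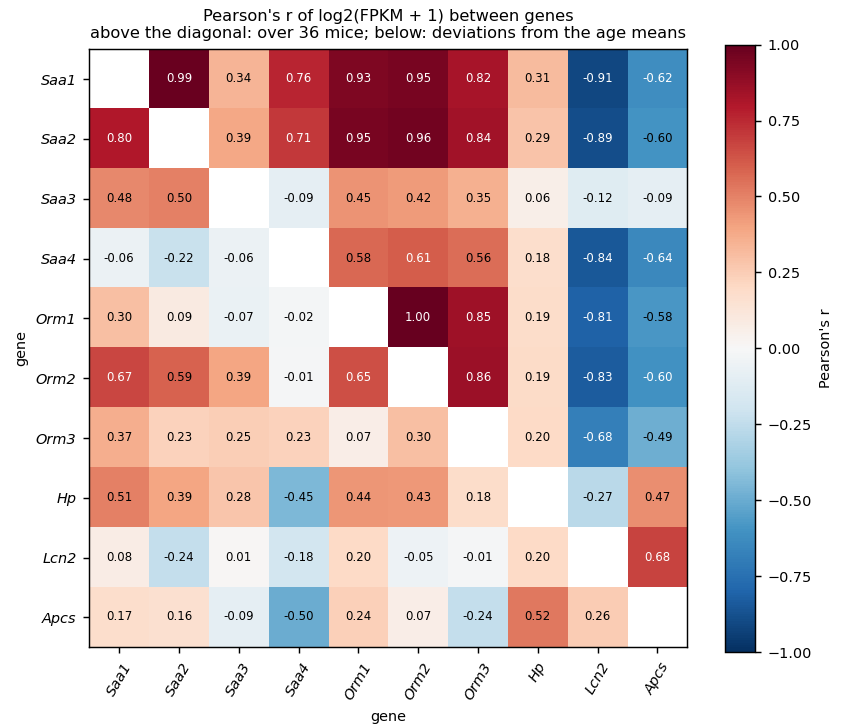
The grid gives Pearson's r of log2(FPKM + 1) for each pair of the 10 genes, above the diagonal over the 36 mice and below it for deviations from the age means, with red above and blue below 0. Saa1 and Saa2 stay high on both sides of it (0.99 and 0.803), while Saa1 and Lcn2 go from -0.911 above the diagonal to 0.077 below it.

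The genes outside the family whose course over the 36 mice was most like each of the 10, by Pearson's r of log2(FPKM + 1) among all genes tested, differed between them. Saa1 was nearest to Adh4 (0.978), Saa2 to Nudt7 (0.968), Orm1 and Orm2 both to Ces3b (0.9799 and 0.9853), and Orm3 to Ces4a (0.873). Saa4 was nearest to Ociad2 (0.927), Hp to Asgr1 (0.976), Lcn2 to Pkm2 (0.976) and Apcs to Atf5 (0.913). Saa3 had the least close neighbour, Dct (0.796), a gene of at most 1.88 FPKM in any mouse.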

How the data were processed

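Livers of 36 male C57BL/6 mice (C57BL/6J in the methods) at 12 ages were measured by RNA-Seq of polyadenylated RNA, as paired ends of 100 bases. The authors mapped reads to NCBI37/mm9 with TopHat 1.2.0 and estimated abundance with Cufflinks 1.0.3 (versions per the submitters' processing notes) against Ensembl version 65 genes. The deposited values are 1 FPKM per gene symbol and mouse on the linear scale, without counts, and the sources used here name no further scaling between libraries.

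Depth was estimated from steps in low values. Of 891 low genes, 538 were kept because most of their values lay within 0.1 of whole fragments after the fit. In these 538 genes 83.0% of the values did so, a share that follows in part from that choice and is no check of the estimate. The fit put relative depth between 0.880 and 1.18 and about 83.7 fragments, in units of 1000000, in a library. Fragment numbers carry counting error and also the errors of the FPKM estimate, of the inferred depth and of the annotated transcript length.

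With limma 3.58.1 in R 4.3.3, log2(FPKM + 1) was fitted for the 11149 genes whose mean reached 1 FPKM at any age. The 36 mice shared 1 model with a mean for each age, no covariate and a mean-variance trend, and the fit was tested on simulated data. P-values were two-sided with Benjamini-Hochberg adjustment across every gene tested (for any age against Day 60, over all genes and the 11 comparisons), with 0.05 as threshold. All 10 genes passed the filter.

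The 10 genes, the lists of related genes and the tests were chosen with earlier results of these data known. All 10 genes are named, and from each list at most 4 genes with the largest called change in a comparison. The regulators Il6, Il6ra, Il6st, Stat3, Socs3, Cebpb and Cebpd, and the genes most like each member, are named too. Cd163, Il1a, Ctf1 at its levels, Serpina1a, the single granule genes and Socs3 at Day 30 were named after their values were seen. Some genes of these lists are not reported here by name. The other lists were macrophage and erythroid genes. Positions and transcripts are from GENCODE M1 on NCBI37/mm9, and promoters from RefSeq on GRCm38.p6. Identities were computed with Biopython 1.88 in Python 3.11.15. Mice of one number at different ages are different animals. Alternatives were a pseudocount of 0.1, no filter or a filter at 5 FPKM, a common upper quartile, a sum of 1000000 per mouse (TPM), variances without the trend, the replicate number as a block, Dunnett's comparison, and each mouse left out.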

Additional observations from a re-analysis of the deposited data

How the results depend on the processing

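Counts of called genes among the 10 were recomputed under 8 settings of the whole table and with each of the 36 mice left out. They stayed within 1.5 times the reported count except for Day 5 against Day 1, where 1 gene was called: the count was 3 with a pseudocount of 0.1 and 2 with TPM scaling. With 1 mouse left out it ranged from 1 to 2, and it was 2 without mouse 1 of Day 15, mouse 1 of Day 25 or mouse 3 of Day 25, where Saa1 passed (adjusted p = 0.0458, 0.0181 and 0.0182). Over all settings and mice left out, the other counts ranged from 8 to 10 (GD17.5 against Day 60), 6 to 8 (Day 0 against GD17.5), 3 to 5 (Day 1 against Day 0), 4 to 6 (Day 25 against Day 20), 9 to 10 (suckling against after weaning) and 9 to 10 (any age against Day 60). Dunnett's comparison with Day 60 gave 10 of 10 genes.

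Log2 fold changes were followed for 39 pairs of gene and comparison, those called in the main fit and a few uncalled ones named in the text. Gains of a call among the other uncalled pairs therefore could not show here. Of 270 log2 fold changes recomputed under settings of the whole table, 264 kept direction and side of the threshold, 2 lost and 3 gained a call. The 1 that turned was Hp in suckling against after weaning, at -0.067 with a common upper quartile. Of 1398 values with 1 mouse left out, 1385 kept both, 8 lost and 5 gained a call. Among these, Orm1 at Day 1 against Day 0 lost its call without mouse 1 of Day 1 (adjusted p = 0.0579), and Saa4 at Day 25 against Day 20 gained one without mouse 1 of Day 0 or of Day 30 (adjusted p = 0.0465 and 0.0484). With the replicate number as a replicate block, 9 genes were called at GD17.5 against Day 60, and the block changed no call. Deviations of same-numbered mice of different ages correlated with a median of 0.126 (-0.680 to 0.829 over 198 pairs). For mice of different numbers and ages the median was -0.048 (-0.777 to 0.769 over 396 pairs). The numbers do not pair animals, and what they share was not tested.

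The values hold no counts, so genes under about 1 FPKM (Saa1 and Saa2 before Day 5, Orm2 before Day 15, Orm3) rest on few fragments. Means under 1 FPKM were also those of Saa1 and Saa2 at Day 5, Orm1 at GD17.5 and Days 1, 3 and 10, and Orm2 at Day 15. In all of these log2(FPKM + 1) compresses the changes. With 3 mice per age and 1 mouse per library, precision is limited. Liver was measured in bulk and in males only.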

Other observations

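Among the positive acute-phase genes outside the 10, hepcidin (Hamp), the hormone that limits iron export, varied widely between mice of one age. It was 7.37 FPKM on average at GD17.5, 575 FPKM at Day 1, 2.97 FPKM at Day 10, 5.93 FPKM at Day 15 and 763 FPKM at Day 60. At Day 20 its mice ranged from 24.6 to 1196 FPKM and at Day 5 from 7.52 to 313 FPKM.

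The metallothionein genes Mt1 and Mt2, which bind zinc and copper, had their highest age means before birth: Mt2 was 1542 FPKM at GD17.5, 1031 FPKM at Day 1, 119 FPKM at Day 15 and 3.03 FPKM at Day 30. Mt2 was higher at GD17.5 than at Day 60 by 7.13 on the log2 scale (adjusted p = 5.44e-10).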
